A study of Mus musculus with 12 samples.

Results

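The genes described here are 5 catenins and 2 cadherins, Ctnna1, Ctnna3, Ctnnb1, Ctnnd1, Jup, Cdh2 and Cdh13, 7 of the 24528 genes in a table of mouse muscle expression. They were picked by symbol, and the set was selected on measured values of the genotype comparison below, in which Ctnna3 stood out. Poly-A RNA from the whole gastrocnemius, a calf muscle, of 12 male mice aged 4 months was sequenced, 1 library per mouse. All 12 mice carried floxed Ank2 alleles (Ank2f/f). The 6 WT mice had no Cre, and the 6 KO mice also carried HSA-Cre, a recombinase driven by a skeletal actin promoter that is active in muscle fibres. The comparison asks how muscle transcripts differ when fibres lack ankyrin-B, the product of Ank2, an adaptor between membrane proteins and the spectrin cytoskeleton. WT mice lacked the Cre, so Cre expression and the deletion cannot be told apart, and Ank2 is not deleted by design in the vessels, nerves and connective tissue of the same muscle.

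Cadherins are membrane proteins that bind cadherins of a neighbouring cell. Classical cadherins hold p120-catenin (Ctnnd1) near the membrane and beta-catenin (Ctnnb1) or plakoglobin (Jup) at the tail, and an alpha-catenin (Ctnna1, Ctnna3) joins that complex to actin. Beta-catenin is also the transcription coactivator of canonical Wnt signalling. In striated muscle, Ctnna3 encodes alpha-T-catenin, known from the intercalated discs of the heart, Cdh2 encodes N-cadherin, and Cdh13 encodes T-cadherin, a lipid-anchored cadherin without a cytoplasmic tail that binds adiponectin on vascular cells.

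The authors deposited log2 values with no read numbers, so reads were estimated from the steps between low values. Summed over the genes of the table, the estimated reads were 12268065 to 16836713 per library in WT and 13488495 to 18685923 in KO. Genes with any reads numbered 14746 to 15056 in WT libraries and 14836 to 15794 in KO libraries. On the deposited log2 scale Ank2 was 8.40 to 9.22 in WT and 7.54 to 8.03 in KO, with means of 8.88 ± 0.35 and 7.74 ± 0.19 (SD, n = 6). Its change was -1.15, with an SE of 0.14 and a limma adjusted p of 0.000884. The exact two-sided permutation p was 0.00216, as low as 924 assignments can reach. The deposited scale compresses low values. In scaled reads, which undo the log2 transformation, Ank2 in KO averaged 33.1% ± 7.12 of the WT mean (SD, n = 6). Along the first principal component, computed from 500 genes of high variance, WT libraries lay at -11.2 to -4.66, KO 2 at -2.32 and the other KO libraries at 3.60 to 16.1, with KO 1, KO 3 and KO 6 highest. KO 2 thus stood nearer to WT than the other KO libraries did, and for several genes the change without it is also given. The mean of 9 fibre markers such as Acta1 and Ckm was 16.78 to 17.30 per library on the same scale. Of 7 heart markers, Myl7 and Nppb were at 0 reads in every library. The whole heart list summed to 99.9 to 155 scaled reads in WT and 64.5 to 278 in KO. Of 7 epithelial markers, Epcam and Cldn4 were at 0. The whole epithelial list summed to 24.2 to 39.5 scaled reads in WT and 35.2 to 137 in KO.

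Of the 7 genes, 6 passed the filter of 10 estimated reads in 6 libraries, and Cdh2 did not. Only Ctnna3 passed the limma threshold of an adjusted p of 0.05, and only for Ctnna3 did the KO libraries lie apart from the WT libraries. Among the 12198 genes tested, 6.18% passed that threshold, 3.11% higher and 3.07% lower in KO, and 2.47% had groups that did not overlap. The genotype contrast chose these genes, so nothing is read from their counts, and their changes are given below as values with the SE of the fit and no p-value. Of the 6 tested genes, 2 had estimates above 0 (Ctnna1, Jup) and 4 below (Ctnna3, Ctnnb1, Ctnnd1, Cdh13).

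Ctnna3 is at chr10:63430098-65003667 on the forward strand of mm10 (GENCODE M21, ENSMUSG00000060843.11), a span of 1573.57 kb for 7227 bases of exon. RefSeq's promoter table (GRCm38.p6, the same build) lists 3 starts for it. The first, at the 5′ end of the gene, and the third, inside it, are shown because they differ in composition, and gene values do not tell which start is read. Each line gives the 250 bases before a start, 5′ to 3′ on the forward strand.
Ctnna3, start at 63430098, chr10:63429848-63430097: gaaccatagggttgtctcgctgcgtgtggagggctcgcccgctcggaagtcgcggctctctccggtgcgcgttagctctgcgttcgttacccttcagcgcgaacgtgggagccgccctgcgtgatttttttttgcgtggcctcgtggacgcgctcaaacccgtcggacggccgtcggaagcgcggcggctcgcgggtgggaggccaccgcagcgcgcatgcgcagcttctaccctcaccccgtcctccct
Ctnna3, start at 63821055, chr10:63820805-63821054: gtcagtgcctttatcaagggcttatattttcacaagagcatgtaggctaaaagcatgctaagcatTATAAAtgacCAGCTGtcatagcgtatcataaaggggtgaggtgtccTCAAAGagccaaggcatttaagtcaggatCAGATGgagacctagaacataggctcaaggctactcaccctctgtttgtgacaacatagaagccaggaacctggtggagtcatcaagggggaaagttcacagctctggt
Capitals in the third window mark matches, on either strand, to TATAAA, to the E-box CANNTG (2 matches) and to the TCF/LEF core CTTTGA, here read on the reverse strand. The first window is 67.6% G or C with 36 CpG pairs and has no match, while the third is 45.6% G or C with 1 CpG. The median of all 32851 listed windows is 52.4% G or C with 6 CpG. Matches are common: 66.2% of all windows hold an E-box, 13.8% the TCF/LEF core and 12.4% TATAAA. Also searched on both strands were the MEF2 motif of CTA and TAG with 4 bases between them (3.2% of windows) and the GATA form AGATAA (9.99%), with no match in any Ctnna3 window.

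All KO libraries held less Ctnna3 RNA than the lowest WT library. In WT its deposited log2 value had a lowest value of 7.18, a median of 7.32 and a highest of 7.41, and in KO 6.56, 6.75 and 6.91. The groups did not overlap, and their SDs were 0.09 in WT and 0.13 in KO (n = 6 each). The difference was -0.59 (SE 0.07) on the deposited scale and -0.60 without KO 2. That scale compresses low values, and Ctnna3 had only 29.3 to 86.7 estimated reads per library. In scaled reads, the read numbers per library size that result when the authors' log2 transformation is undone, Ctnna3 in KO averaged 41.8% ± 9.65 of the WT mean (SD, n = 6). Single KO mice ranged from 29.8% to 56.2%, and single WT mice from 83.2% to 112%. On log2 of scaled reads with a pseudocount of 1 the change was -1.26. KO 4 was lowest, KO 5 was highest, and KO 2 stood at 46.5%, inside the range of the other KO libraries.

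**Figure D1:**
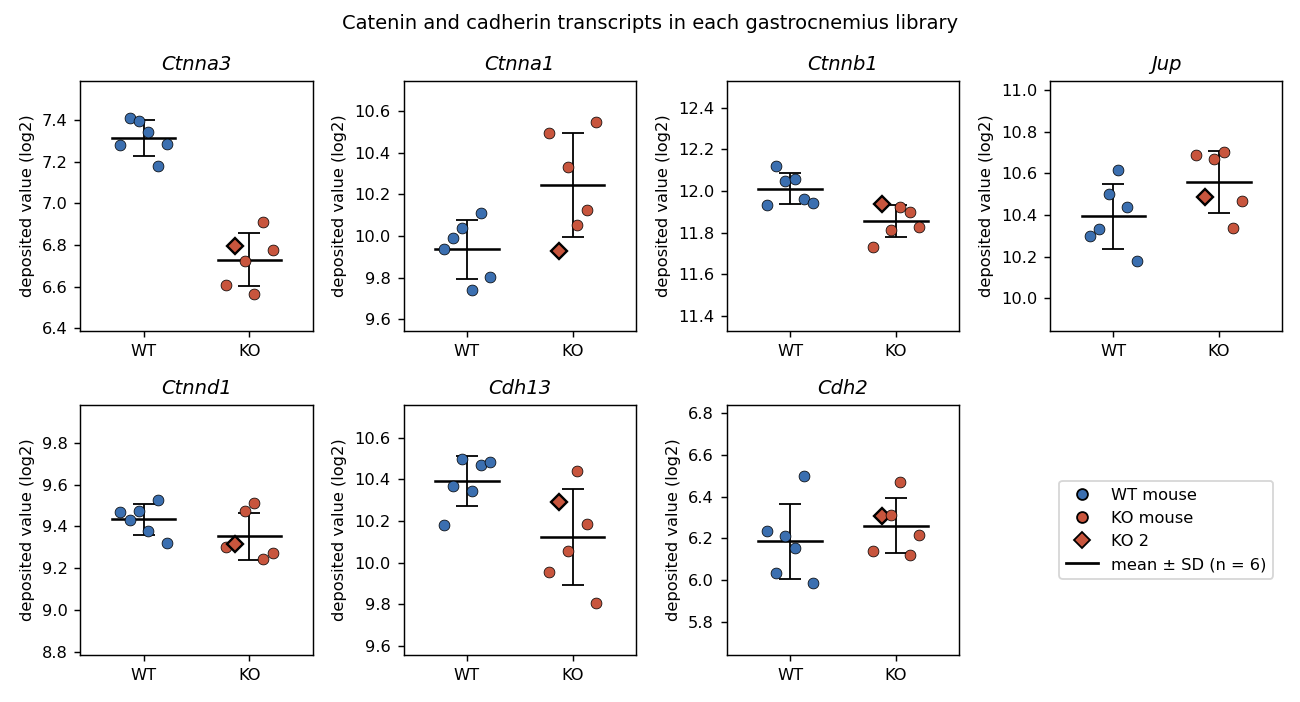
Deposited log2 value of each of the 7 genes in each library, with 1 point per mouse, a diamond for KO 2, and black bars for the mean ± SD (n = 6); panels have the same scale length but their own range. Only for Ctnna3 do the KO points (6.56 to 6.91) lie wholly apart from the WT points (7.18 to 7.41).

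Ctnna1 encodes alpha-E-catenin, the broadly expressed alpha-catenin (chr18:35118859-35254779, forward strand). Its deposited values ran from 9.74 through a median of 9.96 to 10.11 in WT and from 9.93 through 10.23 to 10.54 in KO. Of the KO libraries, 4 lay above the highest WT library, while KO 2 and KO 4 lay within the WT range. The difference was 0.31 (SE 0.11), and 0.37 without KO 2. In scaled reads KO stood at 128% ± 23.8 of the WT mean (SD, n = 6), from 98.8% in KO 2 to 157% in KO 6. The estimates of the 2 alpha-catenins were thus opposite in sign. Counted per length of exon, Ctnna3 made up 7.36% ± 1.09 of alpha-catenin RNA (Ctnna1, Ctnna2 and Ctnna3) in WT and 2.59% ± 0.834 in KO (± SD over 6 mice). The ranges of that share were 5.44% to 8.66% and 1.67% to 3.69%. They did not overlap, but the share is computed from the Ctnna3 and Ctnna1 values above, so this is not a separate result. The summed alpha-catenin level in KO was 122% ± 22.1 of the WT mean, with 95.0% to 149% in KO and 87.0% to 111% in WT.

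Ctnnb1, the beta-catenin gene (chr9:120929216-120960507, forward strand), was lower in 5 of the 6 KO libraries than in any WT library. Its values ran from 11.93 through a median of 12.00 to 12.12 in WT and from 11.73 through 11.86 to 11.94 in KO. The highest KO library was KO 2, which just overlapped the lowest WT library. The difference was -0.16 (SE 0.07), or 89.6% ± 4.96 of the WT mean in scaled reads (SD, n = 6). Quantile normalization brought it to -0.08.

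Jup encodes plakoglobin, which takes the place of beta-catenin on some cadherins and also sits in desmosomes (chr11:100368958-100397763, reverse strand). Its values ran from 10.18 through 10.39 to 10.62 in WT and from 10.34 through 10.58 to 10.70 in KO. The groups overlapped, with 3 KO libraries above the highest WT library. The difference was 0.16 (SE 0.09), or 113% ± 12.2 of the WT mean. Plakoglobin made up 20.1% ± 1.64 of the RNA of the pair, per length of exon, in WT and 24.1% ± 2.60 in KO (± SD over 6 mice), with overlapping ranges of 18.1% to 22.2% and 20.6% to 27.5%. The sum of the pair was 94.2% ± 3.73 of the WT mean in KO.

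Ctnnd1, the p120-catenin gene (chr2:84600071-84650765, reverse strand), had the smallest difference of the 6 tested genes. Its values ran from 9.32 through 9.45 to 9.53 in WT and from 9.24 through 9.31 to 9.51 in KO. No KO library exceeded the highest WT library, and 4 lay below the lowest. The difference was -0.08 (SE 0.07), or 93.9% ± 8.57 of the WT mean.

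Cdh13 (chr8:118283733-119324921, forward strand) was the second longest of the 7 genes at 1041.19 kb. Its values ran from 10.18 through 10.42 to 10.50 in WT and from 9.81 through 10.12 to 10.44 in KO. KO 1, KO 3 and KO 6 lay below every WT library, and the other 3 KO libraries lay within the WT range. The difference was -0.27 (SE 0.10), and -0.30 without KO 2. In scaled reads KO stood at 82.5% ± 14.3 of the WT mean, from 64% to 103%. The same 3 libraries, KO 1, KO 3 and KO 6, held the 3 lowest values of Cdh13 and of Ctnnb1 and the 3 highest of Ctnna1, and they were the 3 highest on the first principal component. Ctnna3 did not share that order, since its lowest KO library was KO 4.

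Cdh2 (chr18:16588877-16809246, reverse strand) was near the limit of detection, with 3.99 to 24.0 estimated reads per library. Its values ran from 5.99 through 6.18 to 6.50 in WT and from 6.12 through 6.26 to 6.47 in KO, against 5.57 for a gene with no reads. The KO range lay wholly inside the WT range. The difference of 0.08 (SE 0.09, from a fit without the filter) was not detectable at this depth. In scaled reads KO stood at 121% ± 47.3 of the WT mean, with WT libraries from 42.0% to 214%.

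Other genes overlap some of these loci, and per the labels' protocols the library kit had no step that marks strand. Ctnna3 holds Lrrtm3 on the opposite strand with no shared exon base, and Lrrtm3 had at most 9.97 estimated reads. Ctnna1 shares 95 exon bases with Lrrtm2, which had at most 0.999. Ctnnb1 shares 759 exon bases with the opposite-strand gene Ulk4, which had at most 4.00. For Ctnnd1, 4482 exon bases are shared with the same-strand gene model Gm28635, not analysed here, so its reads are uncertain to that extent.

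Per kb of exon, the 7 genes differed widely in level in WT muscle. Ctnnb1 was highest at 778 ± 41.9 scaled reads per kb, followed by Jup at 196 ± 22.8 and Ctnna1 at 139 ± 14.7 (± SD over 6 mice). Cdh13 stood at 112 ± 9.61, Ctnnd1 at 82.1 ± 4.79, Ctnna3 at 10.9 ± 1.18 and Cdh2 at 1.18 ± 0.726. Each gene was higher than the next in 6 of 6 WT mice (exact two-sided sign-flip test, adjusted p = 0.03125 for all 6 neighbouring pairs, the smallest that 6 mice give). The order was set by the means of these same mice, so the test is not independent of it. The steps ran from 0.31 ± 0.18 on the log2 scale, between Ctnna1 and Cdh13, to 3.40 ± 0.94, between Ctnna3 and Cdh2. Measured by the longest transcript instead, Cdh13 stood above Ctnna1 in 5 of 6 mice (exact adjusted p = 0.0625), so the order of that pair rests on the length used. The KO libraries had the same order, with levels of 697 ± 38.6 for Ctnnb1, 221 ± 23.9 for Jup, 177 ± 33.0 for Ctnna1 and 92.0 ± 16.0 for Cdh13. Ctnnd1 was at 77.1 ± 7.03, Ctnna3 at 4.55 ± 1.05 and Cdh2 at 1.43 ± 0.559. In KO, Jup over Ctnna1 and Cdh13 over Ctnnd1 held in 5 of 6 mice each, which did not pass (exact adjusted p = 0.0625).

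**Figure D2:**
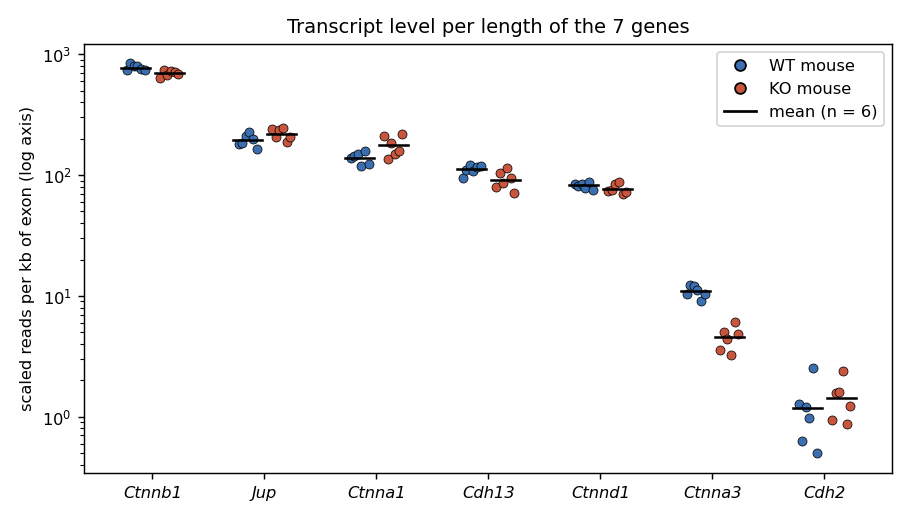
Scaled reads per kb of exon (log axis) for the 7 genes, ordered by the WT mean, with 1 point per mouse and the group mean as a black line. Ctnnb1 is highest, near 778 in WT and 697 in KO, and the 2 groups separate only at Ctnna3, with WT near 10.9 and KO near 4.55.

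Whether the genes vary together from mouse to mouse was examined on deviations from the group mean, which do not use the genotype contrast. All 21 pairs of the 7 genes and their 7 pairs with Ank2 were computed, 28 in all. Ctnnd1 and Cdh2 went together, with Pearson r = 0.80 (exact permutation p = 0.000883, adjusted p = 0.0247) and Spearman rho = 0.81 (exact permutation p = 0.00277, adjusted p = 0.0777) over 12 libraries. The relation was present within each group, with r = 0.85 in WT and 0.86 in KO, and r was 0.82 without KO 4 and KO 3, the libraries farthest from the median of Ctnnd1. It did not pass the exact permutation test after adjustment without WT 5 (0.0985), KO 4 (0.081), KO 5 (0.0911) or KO 6 (0.0732), and Cdh2 rests on few reads. No other pair passed by Pearson r, and no pair at all passed by Spearman rho. Ctnna1 and Ank2 had r = 0.61 (exact permutation p = 0.017, adjusted p = 0.238) and rho = 0.69 (p = 0.00987, adjusted p = 0.138), and r = 0.65 without KO 2 and KO 6. Left out in turn, only WT 6 brought that pair past the threshold (exact permutation adjusted p = 0.0162).

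**Figure D3:**
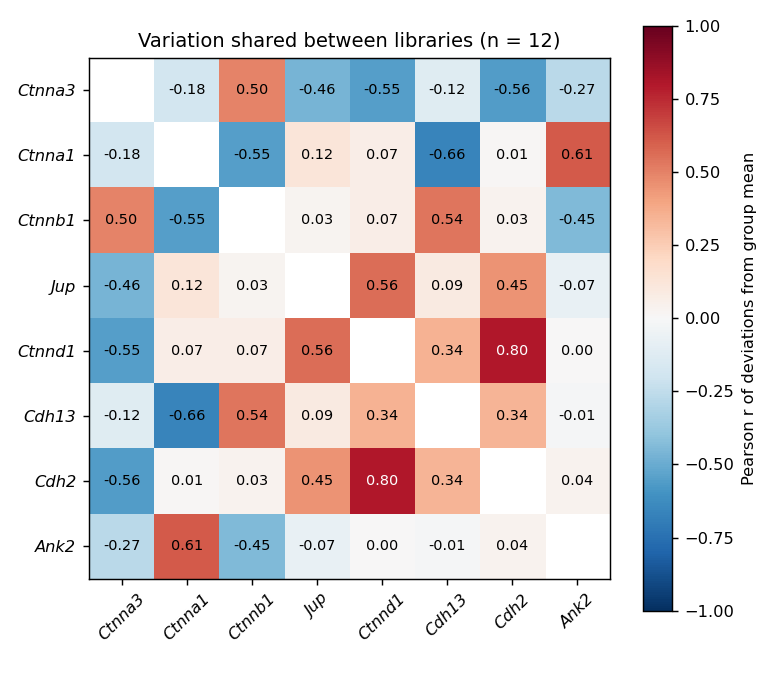
Pearson r between the 7 genes and Ank2 over deviations from the group mean in 12 libraries, as a coloured grid from -1 to 1. The cell of Ctnnd1 with Cdh2 (0.80) was the 1 pair of 28 with an adjusted p under the threshold.

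The genes whose mouse-to-mouse pattern was most like that of Ctnna3 did not share its difference between genotypes. Among 11665 ranked genes, by Pearson r of deviations from the group mean over 12 libraries, the highest were Ldah (0.89), Atg4d (0.89), Nsun2 (0.88), Mak16 (0.87) and Ppp1r37 (0.87). Ldah encodes a lipid droplet hydrolase, Atg4d an autophagy protease, Nsun2 an RNA methyltransferase and Mak16 a ribosome assembly factor. The lowest were Bahd1 (-0.94), a heterochromatin protein, Blnk (-0.91), a B cell adaptor, and Vipas39 (-0.90), a vesicle sorting protein. The KO minus WT changes of these 8 genes lay between -0.14 and 0.14, against -0.59 for Ctnna3, and none passed the limma threshold. With so many genes ranked over 12 libraries, 31 had r above 0.8, and the values are a description. Ctnnb1 stood at 0.50 and Ank2 at -0.27 on the same measure.

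Across the whole table the median change was lower for long genes, and Ctnna3 and Cdh13 are among the longest. Only 5 tested genes span at least as much as Ctnna3, itself included, and 15 at least as much as Cdh13. The median change was 0.07 for 2849 tested genes under 10 kb, -0.02 for 7485 of 10 to 100 kb, -0.10 for 1544 of 100 to 500 kb and -0.10 for 93 of 500 kb or more. The share called lower was 7.06% at 100 to 500 kb and 11.8% at 500 kb or more, beside 3.07% of all tested genes. After a correction for span within each library, chosen after seeing the data, Ctnna3 stood at -0.44, Cdh13 at -0.13 and Ank2 at -1.02. Over the same step Ctnna1 moved to 0.40, Jup to 0.18, Ctnnb1 to -0.13 and Ctnnd1 to -0.03. Uncorrected, Ctnna3 was at -0.59 and Cdh13 at -0.27. The part of gene span in these differences was not tested.

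**Figure D4:**
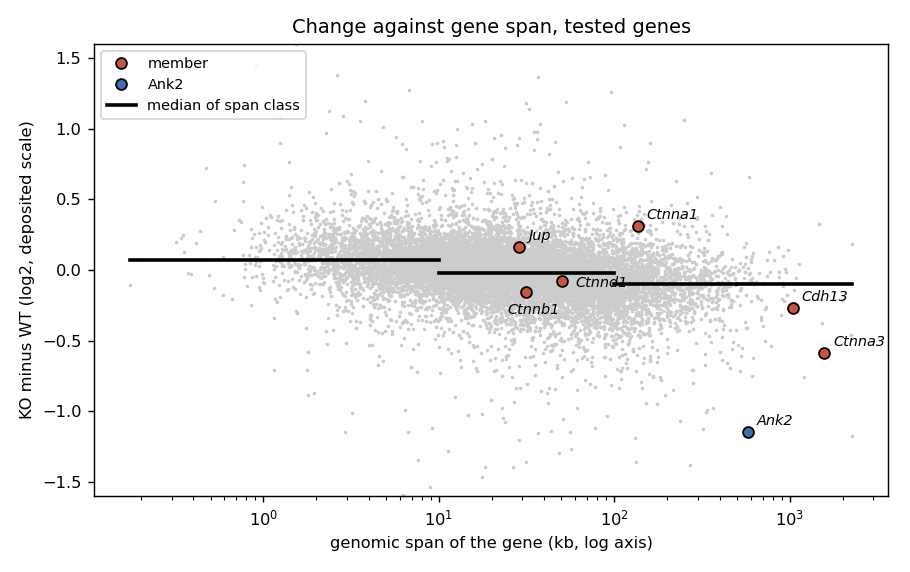
KO minus WT on the deposited log2 scale against genomic span (kb, log axis) for the tested genes, with 6 of the 7 genes in red, Ank2 in blue and the median of each span class as a black line; 14 genes lie outside the vertical range. Medians go from 0.07 in the shortest class to -0.10 in the 2 longest, and Ctnna3 lies at -0.59.

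Cdh13 is known from vascular cells, so their markers are given beside it. Of 10 endothelial markers, 7 had estimates below 0 and 1 fell (Flt1, -0.50, limma adjusted p = 0.0349), with a median change of -0.15 and a sum of 4217 to 5542 scaled reads in WT and 3525 to 5306 in KO. Of 8 mural cell markers, all 8 had estimates below 0 and 1 fell (Myh11, -0.54, limma adjusted p = 0.0419), with a median of -0.31 and sums of 6484 to 8973 and 4590 to 7911. Both genes are named after their values were seen. Neither marker list has a defining gene at 0, and their part in the Cdh13 values was not tested. In whole muscle, fewer cells of a type and less RNA per cell cannot be told apart. Cdh5, the VE-cadherin of endothelium, was at 10.33 to 10.74 in WT and 10.11 to 10.62 in KO, a change of -0.22 (SE 0.09, limma adjusted p = 0.146) that did not pass. Per length of exon, Cdh13 made up 20.05% ± 1.82 of the RNA of Cdh13, Cdh2, Cdh5 and Cdh15 in WT and 20.06% ± 2.54 in KO (± SD over 6 mice). Cdh5 made up 58.5% in WT and 60.9% in KO, and Cdh2 0.211% and 0.311%. These shares depend on the length used. Measured by the longest transcript, Cdh13 made up 37.2% in WT and 37.1% in KO, and Cdh5 46.5% and 48.4%. Cdh4 was not part of this sum. The Cdh13 share thus differed between the groups by less than its SD.

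Adiponectin, the ligand of T-cadherin made by fat cells, is encoded by Adipoq, which fell in KO by 0.34 on the log2 scale (SE 0.09, limma adjusted p = 0.0432). It had 3.00 to 21 estimated reads, with values from 6.08 to 6.58 in WT and 5.91 to 6.28 in KO, and the groups overlapped. The deposited scale compresses such low values. In scaled reads Adipoq in KO averaged 34.9% ± 20.8 of the WT mean (SD, n = 6). Its log2 change was -0.33 without KO 2. Of 6 fat cell markers, Adipoq among them, 3 were tested and all 3 had estimates below 0, with a sum of 58.0 to 236 scaled reads in WT and 31.9 to 126 in KO. Their part in the Adipoq value was not tested. The adiponectin receptor genes Adipor1 (-0.26) and Adipor2 (-0.30) did not pass (limma adjusted p = 0.156 and 0.0836), although the KO libraries of Adipor2 all lay below the WT libraries. The binding proteins of these receptors, Appl1 (-0.18) and Appl2 (0.20), did not pass either (limma adjusted p = 0.22 and 0.187). Adipor2, Appl1 and Appl2 are named as the rest of the list of 5 genes with Adipoq and Adipor1.

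The wider adhesion and Wnt machinery was read from 12 lists of 221 genes without the 7 described above, of which 153 were tested. Of these, 14 passed the limma threshold, or 9.15% beside 6.18% of all tested genes. The 3 called higher in KO were 1.96% beside 3.11% of all, and the 11 called lower were 7.19% beside 3.07% of all. Their median change was -0.06, beside -0.01 for all. The lists were chosen with earlier results of these data known, and no test of the lists as such was made.

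In the lists of classical cadherins, other catenins, other cadherin-repeat genes and desmosome genes, at most 1 gene each passed. Cdh15, the M-cadherin of satellite cells and muscle, was the 1 of 4 tested classical cadherins that passed, from 8.67 to 9.05 in WT to 8.29 to 8.81 in KO (-0.37, SE 0.10, limma adjusted p = 0.0342). KO 2 was its highest KO library, and the change was -0.43 without it. All 4 classical cadherins had estimates below 0. Cdh4, named after its value was seen, had a larger change than Cdh15 but did not pass (-0.69, SE 0.21, limma adjusted p = 0.0648). Of 6 tested satellite cell markers, 1 rose (Sdc4, named after its value was seen, 0.27, limma adjusted p = 0.0331) and none fell, with sums of 503 to 579 scaled reads in WT and 519 to 673 in KO. Their part in the Cdh15 value was not tested. None of the 5 other catenin genes tested passed, the smallest p being that of Ctnnal1, alpha-catulin (-0.19, limma adjusted p = 0.248). Of 16 other cadherin-repeat genes, Celsr3, a planar polarity cadherin, rose (0.40, SE 0.09, limma adjusted p = 0.0182), with all KO libraries above all WT libraries but only 2.99 to 37.0 estimated reads. In scaled reads Celsr3 in KO averaged 257% ± 61.3 of the WT mean (SD, n = 6). KO 2 stood at 147% and the other KO libraries averaged 279%, and the log2 change without KO 2 was 0.44. In the desmosome and intercalated disc list, 1 of 5 tested genes fell, Tmem65, a disc and mitochondrial protein (-0.54, SE 0.15, limma adjusted p = 0.0419). Its change was -0.59 without KO 2.

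Of 21 tested genes listed as actin linkers, 2 fell and 1 rose. Nrap, an actin-binding protein at the ends of myofibrils, fell by 0.57 (SE 0.14, limma adjusted p = 0.0337), and Ablim1, an actin-binding LIM protein, fell by 0.35 (SE 0.10, limma adjusted p = 0.0491), a call that 9 of the 10 other settings below ended. Vasp, an actin filament elongation factor, rose by 0.39 (SE 0.11, limma adjusted p = 0.0468). Of 7 nectin and Cadm genes, Cadm1, an adhesion molecule of the immunoglobulin class, fell by 0.59 (SE 0.13, limma adjusted p = 0.0223). Of 26 genes of cadherin turnover and p120 partners, Ptprm, a receptor phosphatase that binds cadherin complexes, fell by 0.33 (SE 0.08, limma adjusted p = 0.0331). For Cadm1 and Ptprm all KO libraries lay below all WT libraries. Without KO 2 the changes were -0.65 for Nrap, -0.33 for Ablim1, 0.44 for Vasp, -0.67 for Cadm1 and -0.35 for Ptprm.

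On the signalling side of beta-catenin, 4 of 28 tested Wnt ligand and receptor genes fell and none rose, where 3.07% of all tested genes were called lower and 3.11% higher. The receptors Fzd7 and Fzd9 fell by 0.67 (SE 0.17, limma adjusted p = 0.0335) and by 0.52 (SE 0.11, limma adjusted p = 0.0154). Wls, which carries Wnt proteins to the cell surface, fell by 0.54 (SE 0.15, limma adjusted p = 0.043), and the ligand Wnt5b, with only 4.80 to 26.1 estimated reads, fell by 0.37 (SE 0.09, limma adjusted p = 0.0256). In scaled reads Wnt5b in KO averaged 39.4% ± 24.5 of the WT mean (SD, n = 6). KO 2 stood at 84.5%, and the other KO libraries averaged 30.3%. None of the 19 genes of beta-catenin degradation passed, the smallest p being that of the kinase gene Csnk1e (-0.24, limma adjusted p = 0.0923). Of 17 genes of TCF/LEF factors, coactivators and targets, Tle3, a corepressor, rose by 0.24 (SE 0.06, limma adjusted p = 0.0331). The KO libraries of Fzd9 and Tle3 did not overlap with the WT libraries. With KO 2 left out, the changes were -0.77 for Fzd7, -0.57 for Fzd9, -0.62 for Wls, -0.43 for Wnt5b and 0.24 for Tle3.

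**Figure D5:**
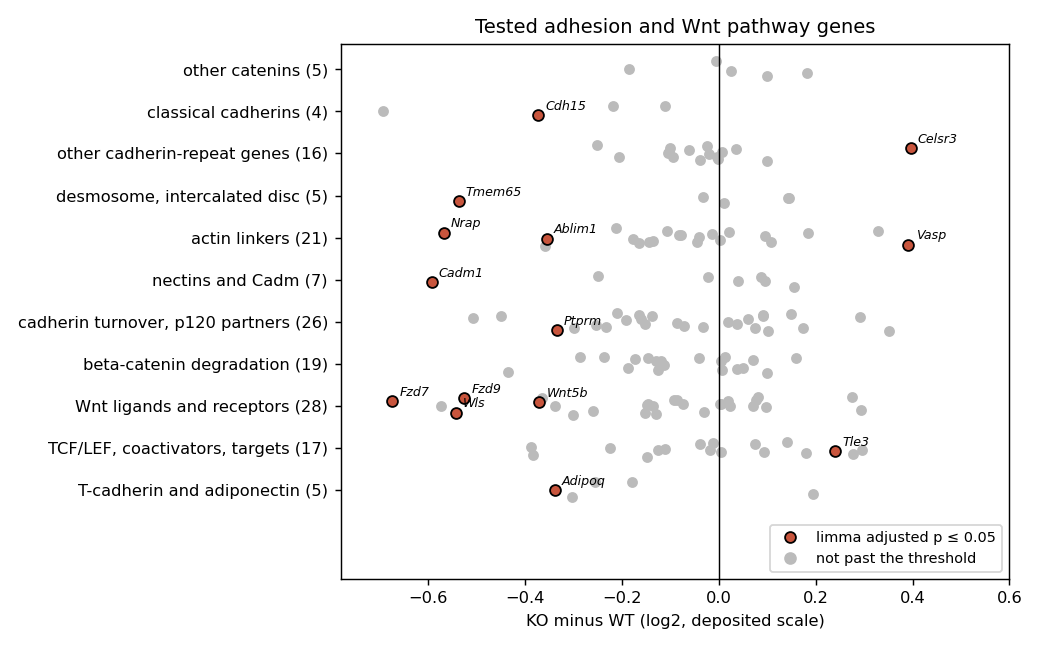
KO minus WT on the deposited log2 scale for the 153 tested pathway genes by list, with the number tested in brackets, genes past the limma threshold in red and the others in grey; vertical offsets within a list only separate points. Of the 14 red points, 3 lie above 0 (Celsr3, Vasp, Tle3) and 11 below.

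Most of these calls depended on single libraries. Celsr3 and Fzd9 kept theirs whichever library was left out, with limma adjusted p at most 0.0481 and 0.0448, and Cadm1 lost its call only without WT 2 (0.0556). The other 11 lost theirs without each of at least 5 of the 12 libraries, with limma adjusted p up to 0.121 for Ablim1. The number of pathway genes called was 28 without KO 2, 3 without WT 3 or KO 6, 4 without WT 2, WT 5, KO 1 or KO 3, 5 without WT 1 and 9 without WT 6. After the span correction 9 were called, and Tmem65, Vasp, Ablim1, Cadm1, Ptprm, Wnt5b and Wls were not among them. The vascular markers Flt1 and Myh11 lost their calls there too. Ablim1 also lost its call without robust moderation, after median centring or quantile normalization, without the filter, with the stricter filter, on log2 of scaled reads with either pseudocount and with limma-voom. Vasp lost its call without robust moderation and without the filter, and Tmem65 after quantile normalization.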

How the data were processed

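Poly-A RNA-seq of 12 gastrocnemius libraries was analysed. The authors deposited 1 table of values on a log2 scale with a shared floor of 5.57. Per the submitters' processing notes, the tools were fastp, STAR and featureCounts and the build mm10, with no versions. The transformation is not given in the sources used here. Its shape is that of a variance-stabilizing transformation, which compresses low values, and its closed form was inverted to scaled reads. The step taken as 1 read in each library was searched for within a set range. It was the step that made the largest share of low values whole numbers, within 0.1. The estimated reads that result are approximate and carry counting error. The members and lists were chosen with earlier results of these data known.

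The filter, 10 or more estimated reads in 6 or more libraries, kept 12198 genes. The deposited values were modelled by group alone in limma 3.58.1 (R 4.3.3), with trend and robust moderation and two-sided p-values with Benjamini-Hochberg adjustment at 0.05. The fit was tested on simulated data. Changes are KO minus WT. Levels per length used GENCODE M21 exons. Correlations and neighbouring levels had exact permutation tests (scipy 1.17.1). Named were the 7 genes, Ank2, Cdh5, Cdh15, each pathway gene past the threshold or the smallest p of a list, overlapping LRRTM genes, and the 5 highest and 3 lowest correlates of Ctnna3. Alternatives covered scaling, filter, pseudocount, limma-voom, a replicate block, gene span and each library left out.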

Additional observations from a re-analysis of the deposited data

Results flagged for a closer look

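Among the named genes, 3 of 55 groups of 6 libraries held a library far from the others, and chance gives about 1 in 20 groups. All 3 were in LRRTM genes, a family with members nested in alpha-catenin genes. Lrrtm1 was at 5.798 in WT 3, and Lrrtm2 at 5.791 in WT 1 and at 5.755 in KO 4. All other libraries of those groups were at the floor of 5.57, so each of these values stands for about 1 read. None of the 7 catenin and cadherin genes had a library that far from the rest of its group.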

How the results depend on the processing

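Every change of the 7 genes kept its sign under every alternative run. Ctnna3 ran from -0.62 to -0.55 with 1 library left out and from -1.30 (limma-voom) to -0.44 (gene span correction, added after seeing the data) otherwise. Among the other genes, Ctnnb1 went from -0.16 to -0.08 under quantile normalization. After the gene span correction Cdh13 went from -0.27 to -0.13, Ctnnd1 from -0.08 to -0.03 and Ctnna1 from 0.31 to 0.40. Ank2 ran from -1.57 to -1.02, and from -1.25 to -1.08 with 1 library left out. Genes called numbered 599 to 861 under the other settings and 194 to 1515 with 1 library left out (1515 without KO 2, 194 without KO 6). Pathway genes called numbered 9 after the gene span correction, 10 to 17 under the others and 3 to 28 with 1 library left out. Member pairs past the threshold numbered 0 to 2, and neighbouring levels 0 to 0 because 5 mice cannot pass, with the order unchanged. The cause of the other shifts was not tested. Few reads limit Cdh2, Adipoq, Wnt5b, Celsr3, Ulk4 and the LRRTM genes.

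Replicate numbers showed no clear pairing of the samples. Same-numbered WT and KO libraries had correlations of deviations from -0.36 to 0.29, 2 of 6 over 0.1. Of the 6 WT libraries, 1 correlated best with its own number. These few values cannot exclude a pairing. With a replicate block, 796 genes were called, 17 of them pathway genes (Adipoq, Tle3 and Tmem65 no longer among them), the Ank2 change was -1.15, and 0 member pairs passed (Ctnnd1 with Cdh2, exact permutation adjusted p = 0.0525).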
